A study of Mus musculus with 15 samples.

Results

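The NR4A genes Nr4a1, Nr4a2 and Nr4a3 encode a family of orphan nuclear receptors, also known as Nur77, Nurr1 and NOR-1. They were followed on every array of a study that treated primary mouse chondrocytes with inhibitors of intracellular signaling. All probe sets whose platform annotation names 1 of the 3 genes alone were taken, whatever their values. These were 10 of 45037 probe sets and 3 of 18193 genes, with 1 probe set for Nr4a1, 6 for Nr4a2 and 3 for Nr4a3. The chondrocytes came from the hind limb cartilage of CD1 mouse embryos at embryonic day 15.5 and were grown as primary monolayer cultures. No allele or transgene was involved. They received DMSO, the solvent used as vehicle, LY294002, an inhibitor of PI3K, U0126 (spelled UO126 in the labels), an inhibitor of MEK, SB202190 (SB90 in the labels), listed by the series text with U0126 under the MEK/ERK pathway and generally known as an inhibitor of p38 kinase, or Trichostatin A, an inhibitor of histone deacetylases. Each of the 5 treatments has 3 arrays from biological replicates, 15 in all. The labels and the study's methods give a treatment time of 24 h and the series text 2 h, and the files do not settle it. The dose of LY294002 was 10 µM, and no dose is given for the other inhibitors in the sources used here.

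NR4A receptors have no known natural ligand, and their activity is set mainly by how much receptor a cell makes. Their genes are immediate early genes, which hormones, growth factors and stress switch on within a short time through cyclic AMP, the kinase PKA, the transcription factor CREB and MAP kinase cascades. The receptors bind DNA alone, and some members also together with RXR receptors. In bone and cartilage cells they are known as genes induced by parathyroid hormone and prostaglandins.

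The stretches of 250 bases upstream of each annotated gene start are shown because all 3 genes are known to be switched on through cyclic AMP and CREB, whose motif can be searched in them. They are taken from RefSeq on build GRCm38.p6, written in the direction of transcription, with all 3 members matched by symbol. The capitals mark each short form of the cyclic AMP response element (CRE), the DNA motif that CREB recognizes, searched as TGACG on both strands, so that CGTCA is a match on the other strand.
Nr4a1, chr15:101266596-101266845, plus strand: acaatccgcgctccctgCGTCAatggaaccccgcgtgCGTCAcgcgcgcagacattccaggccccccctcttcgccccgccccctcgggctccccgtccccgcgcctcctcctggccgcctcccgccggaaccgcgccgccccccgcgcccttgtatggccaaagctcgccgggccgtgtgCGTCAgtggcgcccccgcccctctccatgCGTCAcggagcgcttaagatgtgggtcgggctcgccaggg
Nr4a2, chr2:57124004-57124253, minus strand: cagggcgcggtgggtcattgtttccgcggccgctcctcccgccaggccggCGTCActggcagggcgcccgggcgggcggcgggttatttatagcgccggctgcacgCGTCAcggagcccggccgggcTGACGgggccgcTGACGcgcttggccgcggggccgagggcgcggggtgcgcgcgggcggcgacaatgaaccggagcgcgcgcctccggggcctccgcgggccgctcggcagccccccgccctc
Nr4a3, chr4:48045055-48045304, plus strand: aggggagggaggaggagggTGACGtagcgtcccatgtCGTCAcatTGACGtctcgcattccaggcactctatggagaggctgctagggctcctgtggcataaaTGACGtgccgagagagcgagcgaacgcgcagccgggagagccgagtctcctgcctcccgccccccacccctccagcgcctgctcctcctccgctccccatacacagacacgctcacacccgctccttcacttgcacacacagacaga
Each member held 4 such short sites. Of 32851 upstream stretches of the same length in the RefSeq table, 17.77% held at least 1 and 45, or 0.14%, held 4 or more. The first base of each site lay 233, 213, 69 and 40 bases upstream of the start in Nr4a1, 200, 144, 123 and 111 in Nr4a2, and 231, 213, 205 and 147 in Nr4a3. No stretch of the 3 held the full palindrome TGACGTCA, present in 1.55% of all stretches, the NR4A binding motif AAAGGTCA (1.34%) or the AP-1 motif TGANTCA (6.75%). The GC box GGGCGG was found 3 times in Nr4a1, 4 times in Nr4a2 and once in Nr4a3, and in 32.74% of all stretches. The GC content was 74.4%, 80.0% and 63.6%, against a median of 52.4%. These matches describe letters only, and for Nr4a1 and Nr4a3 the start used lies inside the annotated span of the gene, so that other starts were not covered.

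Every value is a signal on the log2 scale. Correlations between pairs of arrays over all probe sets ranged from 0.964 to 0.998. All 16 cartilage markers, among them Col2a1 and Acan, were above the filter, and their signals summed to between 80795 and 86114 on the DMSO arrays. Markers of other cells were measured too. The summed signals of 14 skeletal muscle markers, 1 of which was below the filter in every treatment, on the DMSO arrays were 6361, 4095 and 2926 in replicates 1, 2 and 3, and those of 14 macrophage and leukocyte markers, 3 of which were below the filter in every treatment, lay between 2202 and 2637. In these bulk samples, fewer cells of a type and less RNA per cell cannot be told apart.

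With LY294002, Nr4a2 rose in 4 of its 6 probe sets. Nr4a1 was higher on average by 1.53 on the log2 scale without passing the main test, which does not pair arrays by replicate number. With Trichostatin A, Nr4a1, 3 of the 6 probe sets of Nr4a2 and 1 of the 3 of Nr4a3 rose. No NR4A probe set passed the test with U0126 or SB202190. All 10 probe sets passed the filter, a mean signal of at least 50 in either group, in every comparison. Each inhibitor was compared with the same 3 DMSO arrays, so that the 4 comparisons are not independent. By limma with Benjamini-Hochberg adjustment over all probe sets tested, and a threshold of 0.05, 4 of the 10 were higher with LY294002 and none lower, whereas of all probe sets tested 6.83% were higher and 1.78% lower. With the replicate number as a block, which pairs these arrays, Nr4a1 passed as well (0.0020), and 1421079_at of Nr4a3 passed as lower (adjusted p by limma 0.034). Among all probe sets, 6370 rather than 2978 passed with this block. With Trichostatin A 5 of the 10 were higher and none lower, against 23.0% higher and 20.6% lower among all. Probe sets of the same gene are not separate members, and all 4 called with LY294002 read Nr4a2. By the brightest probe set of each gene, 1 of 3 genes was higher with LY294002, against 8.85% of all genes tested. With Trichostatin A 2 of 3 were higher, against 27.0%, and none was lower with either inhibitor. For U0126 the count was 0 of 10, with 1 probe set of Nr4a3 at an unadjusted p under 0.05, against 1.14% higher and 0.792% lower among all. For SB202190 it was also 0 of 10, with none at an unadjusted p under 0.05, against 1.23% higher and 0.706% lower. The median log2 difference of the 10 probe sets was 0.20 with LY294002, 0.04 with U0126, -0.06 with SB202190 and 0.44 with Trichostatin A, beside medians over all probe sets tested of -0.02, 0.0016, -0.01 and -0.06. In the F test over all 5 treatments, 5 of the 10 passed, and 44.5% of all probe sets did.

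**Figure D1:**
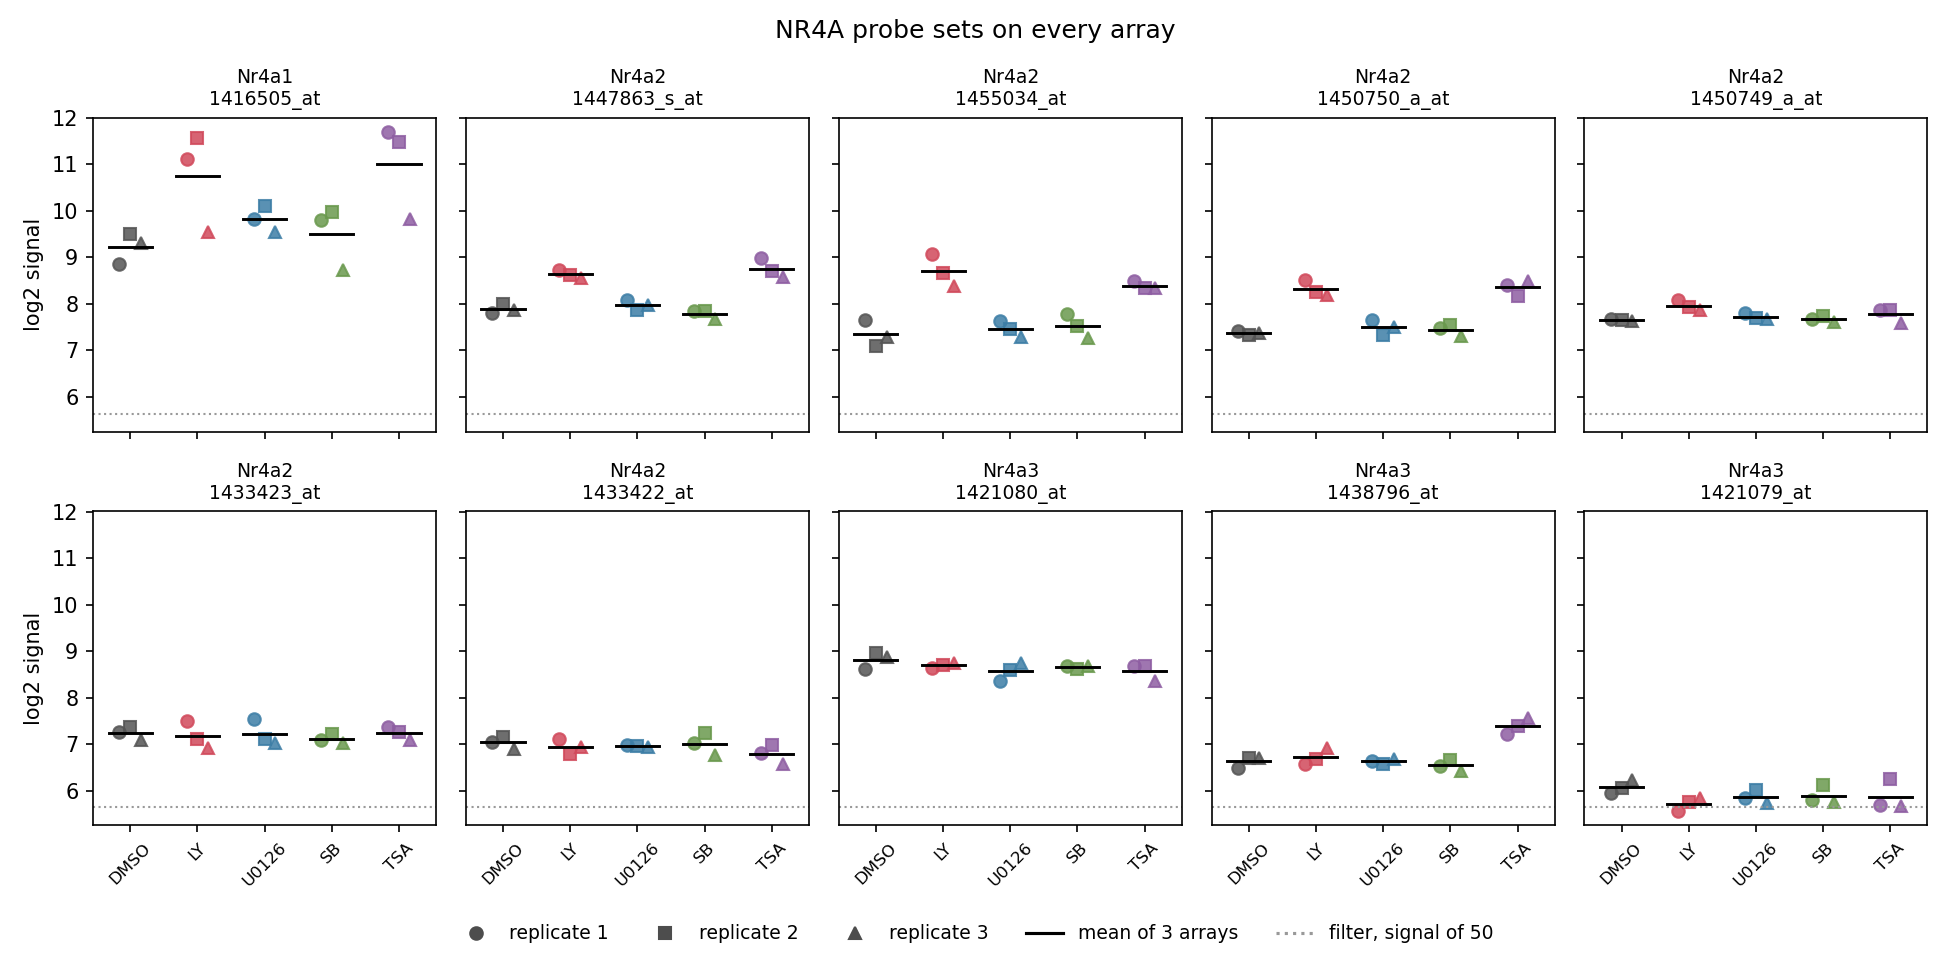
Log2 signal (vertical axis) of each of the 10 NR4A probe sets in the 5 treatments (DMSO, LY for LY294002, U0126, SB for SB202190, TSA for Trichostatin A), with 1 point per array, the replicate number as the symbol and the mean of 3 arrays as a bar. Nr4a1 is spread widely with LY294002 and Trichostatin A, where replicate 3 lies at 9.55 and 9.83, still above the highest DMSO array at 9.49. With both inhibitors 1447863_s_at, 1455034_at and 1450750_a_at of Nr4a2 are also separated from DMSO on every array. The share of all probe sets separated in this way was not computed.

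Nr4a1 encodes Nur77, the member named first for its induction by nerve growth factor, and is read by probe set 1416505_at. Its log2 signal on the DMSO arrays was 8.85, 9.49 and 9.31 in replicates 1, 2 and 3. It was 11.11, 11.58 and 9.55 with LY294002 and 11.70, 11.48 and 9.83 with Trichostatin A. All arrays of both inhibitors lay above all DMSO arrays, but replicate 3 lay far below the other two in each. The signal was 9.83, 10.11 and 9.54 with U0126, also above every DMSO array. With SB202190 it was 9.80, 9.98 and 8.72, overlapping DMSO at both ends.

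With LY294002 the mean of Nr4a1 was 10.74 ± 1.06 (SD, n = 3) against 9.22 ± 0.33 (SD, n = 3) with DMSO, a difference of 1.53 (SE 0.49, 95% interval 0.50 to 2.55) or 2.88-fold. The adjusted p by limma was 0.062, and the difference did not pass. Over all probe sets tested, same-numbered DMSO and LY294002 arrays deviated together, whereas for Nr4a1 their differences were uneven, at 2.26, 2.08 and 0.24. With a block for the replicate number, the adjusted p of Nr4a1 by limma was 0.0020. It also fell to 0.0089 without LY294002 replicate 3, where the difference was 2.12, and to 0.029 without Trichostatin A replicate 3, which enters only through the shared estimate of spread. It was 0.041 without the 3 Trichostatin A arrays, 0.0495 with each array centred on its median, and 0.0015 without all 5 arrays numbered 3, where the difference was 2.17. With Trichostatin A the difference was 1.78 (SE 0.49, 95% interval 0.76 to 2.81) or 3.44-fold, with an adjusted p by limma of 0.0065. It stayed below the threshold without any single array, but not without all 5 arrays numbered 1 (1.25, adjusted p by limma 0.125) or all 5 numbered 2 (1.68, adjusted p 0.055). With U0126 the difference was 0.61 (95% interval -0.42 to 1.63, adjusted p by limma 0.836), and with SB202190 it was 0.28 (95% interval -0.74 to 1.31, adjusted p 0.890), so that changes of either sign fit inside both intervals.

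The spread of Nr4a1 between replicates was itself among the widest on the arrays. Its SD was 1.06 with LY294002, exceeded by 9 of 33818 probe sets above the filter, and 1.02 with Trichostatin A, exceeded by 10 of 33907. With SB202190 it was 0.68, exceeded by 30 of 34068 probe sets. With DMSO and U0126 it was 0.33 and 0.28, and 4.04% and 3.64% of probe sets had a larger one. Against the DMSO array of the same number, Nr4a1 was higher with LY294002 by 2.26, 2.08 and 0.24 on the log2 scale, and with Trichostatin A by 2.85, 1.98 and 0.52. For U0126 these differences were 0.98, 0.61 and 0.23, and for SB202190 0.95, 0.48 and -0.59. The smallest of the 3 was the one of replicate 3 in all 4 treatments, which share the DMSO array of that number.

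Nr4a2 encodes Nurr1, a receptor known for its role in dopamine neurons. Its 6 probe sets fell into those that rose and those that did not. The brightest, 1447863_s_at, read 7.81, 8.0 and 7.88 with DMSO, 8.73, 8.61 and 8.56 with LY294002, and 8.98, 8.72 and 8.57 with Trichostatin A. It read 8.07, 7.87 and 7.97 with U0126 and 7.84, 7.85 and 7.68 with SB202190. The LY294002 and Trichostatin A arrays all lay above the other 9, and both U0126 and SB202190 overlapped DMSO, with every U0126 array above every SB202190 array. The difference to DMSO was 0.74 (SE 0.10, 95% interval 0.52 to 0.96) or 1.67-fold with LY294002, with an adjusted p by limma of 0.00058. It was 0.86 (SE 0.10, 95% interval 0.64 to 1.08) or 1.81-fold with Trichostatin A, with an adjusted p by limma of 3.1e-06. Both calls held without any single array.

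Probe set 1455034_at showed a larger rise of Nr4a2. It read 7.66, 7.10 and 7.30 with DMSO, 9.06, 8.67 and 8.38 with LY294002, and 8.49, 8.34 and 8.35 with Trichostatin A. The difference was 1.35 (SE 0.17, 95% interval 0.99 to 1.71) or 2.55-fold with LY294002, with an adjusted p by limma of 0.00021. It was 1.04 (SE 0.17, 95% interval 0.68 to 1.4) or 2.06-fold with Trichostatin A, with an adjusted p by limma of 7.7e-05. Without all 5 arrays numbered 2 the difference with LY294002 was 1.24, with an adjusted p by limma of 0.055. Probe set 1450750_a_at read 7.42, 7.34 and 7.38 with DMSO, 8.52, 8.26 and 8.20 with LY294002, and 8.41, 8.18 and 8.50 with Trichostatin A. Its differences were 0.95 (SE 0.11) or 1.93-fold and 0.98 (SE 0.11) or 1.98-fold, with adjusted p by limma of 0.00012 and 1.3e-06. In both probe sets the arrays of the 2 inhibitors lay above all those of DMSO, U0126 and SB202190.

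The other 3 probe sets of Nr4a2 moved little. In 1450749_a_at the LY294002 arrays, at 8.08, 7.94 and 7.87, all lay above the DMSO arrays, at 7.68, 7.66 and 7.63. The difference was 0.30 (SE 0.09), with an adjusted p by limma of 0.044. This call was lost in 9 of 15 fits that left out 1 array, namely replicates 2 and 3 of DMSO, 1 and 2 of LY294002, 2 and 3 of U0126 and all 3 of SB202190, with adjusted p by limma between 0.053 and 0.188. It was also lost in a fit of the DMSO and LY294002 arrays alone (0.132) and without the filter (0.051). With Trichostatin A the difference was 0.13 (95% interval -0.06 to 0.32, adjusted p by limma 0.264), and the arrays overlapped DMSO. Probe sets 1433423_at and 1433422_at lay between 6.57 and 7.54 on all 15 arrays. Their differences to DMSO with LY294002 were -0.06 and -0.09 (95% intervals -0.37 to 0.24 and -0.36 to 0.18), and with Trichostatin A -0.0025 and -0.25 (95% intervals -0.31 to 0.31 and -0.52 to 0.013). For 1433422_at with Trichostatin A the adjusted p by limma was 0.116, and 0.049 without Trichostatin A replicate 2. The part of the transcript that each probe set reads was not analysed here, so the probe sets are given side by side, and the mean over all 6 was used only as an alternative.

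With U0126 and SB202190, Nr4a2 stayed close to DMSO. The differences of the 6 probe sets ranged from -0.08 to 0.12 with U0126 and from -0.14 to 0.17 with SB202190. The adjusted p by limma ranged from 0.894 to 0.995 and from 0.766 to 0.978. For 1447863_s_at the 95% intervals were -0.14 to 0.29 and -0.33 to 0.11, which do not reach the 0.74 seen with LY294002.

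Nr4a3 encodes NOR-1. Its brightest probe set, 1421080_at, read 8.61, 8.97 and 8.88 with DMSO and lay between 8.36 and 8.75 on the other 12 arrays. Its differences to DMSO were -0.12, -0.25, -0.16 and -0.25 with LY294002, U0126, SB202190 and Trichostatin A. All treatments overlapped DMSO, and none passed the test, with adjusted p by limma of 0.526, 0.483, 0.655 and 0.096. Without DMSO replicate 1 the difference with Trichostatin A was -0.35, with an adjusted p by limma of 0.023.

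A second probe set of Nr4a3, 1438796_at, rose with Trichostatin A alone among the 4 inhibitors tested. It read 6.49, 6.71 and 6.71 with DMSO and 7.23, 7.39 and 7.56 with Trichostatin A, above all 12 other arrays. The difference was 0.76 (SE 0.11, 95% interval 0.53 to 0.98) or 1.69-fold, with an adjusted p by limma of 1.8e-05, and the difference between LY294002 and Trichostatin A passed the test as well (0.66, adjusted p 7.1e-05). With LY294002 its difference to DMSO was 0.09 (95% interval -0.13 to 0.32). The dimmest probe set, 1421079_at, read 5.96, 6.06 and 6.23 with DMSO and 5.56, 5.75 and 5.85 with LY294002, all below DMSO and near the filter. The difference was -0.37 (SE 0.15), with an adjusted p by limma of 0.138, and of 0.034 with the replicate number as a block. With Trichostatin A it was -0.21 (adjusted p by limma 0.270), and -0.40 (adjusted p 0.020) without Trichostatin A replicate 2. The 3 probe sets thus differed in direction with Trichostatin A, and the mean over them was 0.10 higher than DMSO (adjusted p by limma 0.359).

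**Figure D2:**
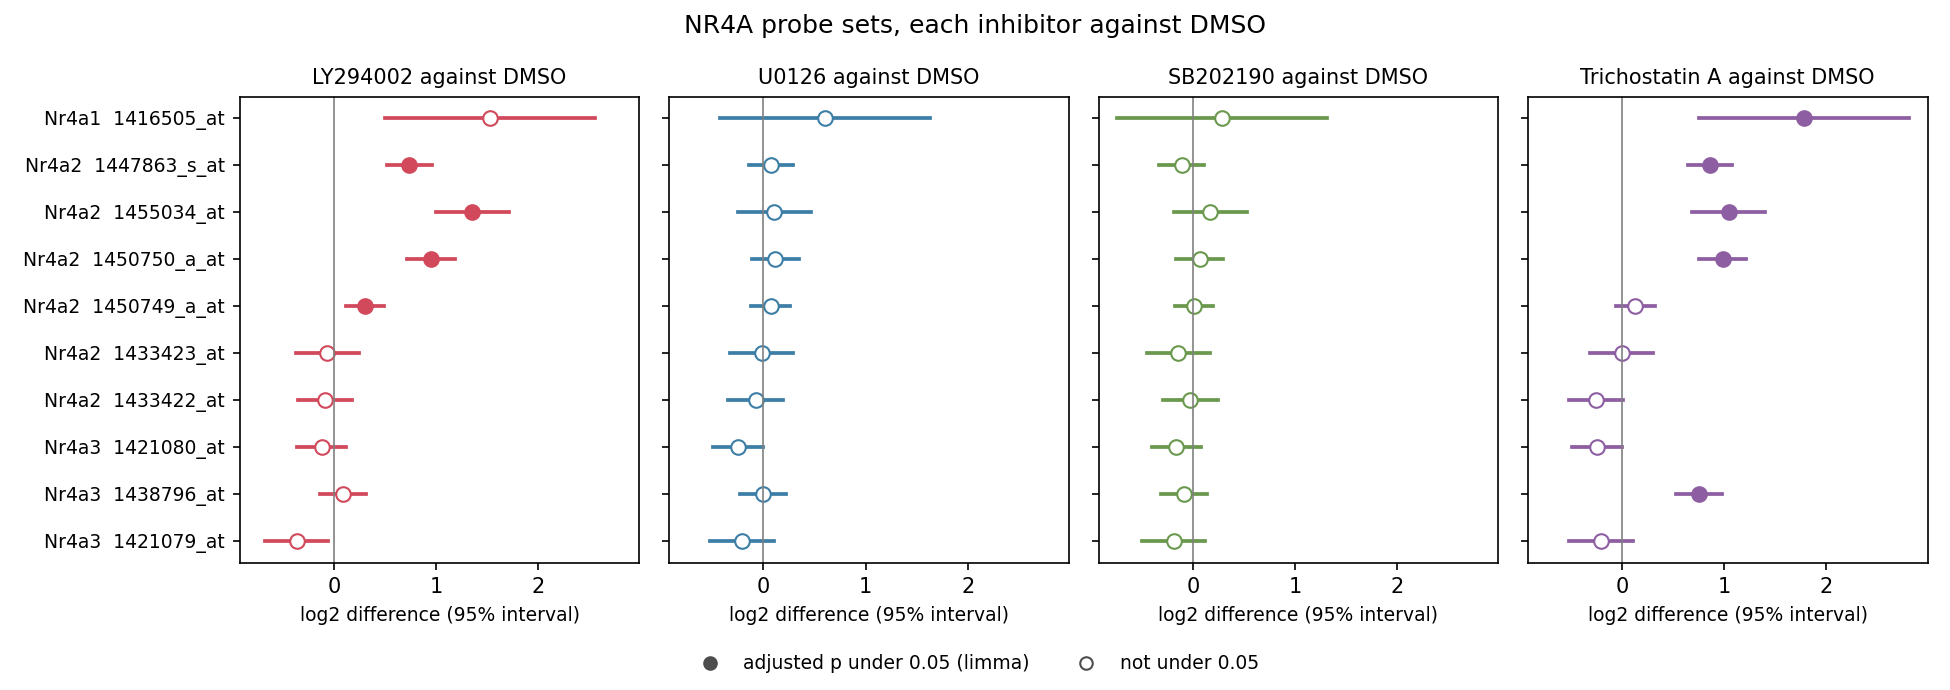
Log2 difference of each NR4A probe set (vertical axis) to DMSO (horizontal axis) with its 95% interval, 1 panel per inhibitor, with filled points for an adjusted p under 0.05 by limma. The same 3 Nr4a2 probe sets stand to the right of 0 with LY294002 and Trichostatin A, at 0.74 to 1.35 and 0.86 to 1.04, while the interval of Nr4a1 is the widest in every panel.

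The cultures changed in other ways with Trichostatin A. All 16 cartilage markers were lower, against 22.7% of all genes tested, and their summed signal lay between 39155 and 52798. The summed signal of 14 skeletal muscle markers lay between 1520 and 1638, and that of 10 neuronal markers, 1 of them below the filter in every treatment, between 4453 and 5012, against 1557 to 1844 with DMSO. Of 9 neuronal markers tested, 5 were higher and none lower, against 27.0% and 22.7% of all genes tested. The other 4, Elavl4, Elavl3, Rbfox3 and Syp, differed by 0.03, -0.03, -0.11 and -0.10 without passing, so that the sum does not describe the whole list. With LY294002 the cartilage markers summed to between 105037 and 108197, with 5 of 16 higher, against 8.85% of all genes tested, a count of 10 without Trichostatin A replicate 3, 3 without LY294002 replicate 2 or 3, 2 if LY294002 replicate 1 was dropped and 1 if DMSO replicate 2 was. With U0126 the cartilage markers summed to between 103935 and 120985, with 4 of 16 higher, against 1.66% of all genes tested. That count lay between 1 and 8 without 1 array, so that the cartilage rise was not particular to LY294002. With SB202190 the cartilage markers summed to between 71574 and 83524, and 0 of 16 passed, against 1.7% higher and 1.01% lower. The neuronal markers summed to between 1374 and 1517 with LY294002. The macrophage and leukocyte markers summed to between 2351 and 2683 with LY294002 and between 2285 and 2527 with Trichostatin A, overlapping DMSO in both. Of 11 such markers tested, 7 were lower with Trichostatin A and 1 higher, against 22.7% and 27.0% of all genes tested. The higher one, Cd68, rose by 2.22 (adjusted p by limma 4.4e-11), so that the sum hides the lower ones. The 10 endothelial markers, 4 of them below the filter in every treatment, summed to between 1086 and 1364 on all arrays. The 13 fibroblast and perichondrium markers summed to between 55314 and 67951 with DMSO, 59749 and 70359 with LY294002, and 37586 and 41915 with Trichostatin A. With Trichostatin A 10 of the 13 were lower and 2 higher, against 22.7% and 27.0% of all genes tested. The 2 higher, which the sum hides, were Thy1 by 1.67 (adjusted p by limma 1.5e-10) and Twist1 by 0.26 (0.039). The part of these shifts in the NR4A values was not tested.

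The inhibitors were also compared with one another. LY294002 was above U0126 and above SB202190 in the same 3 probe sets of Nr4a2 that rose most against DMSO, 3 of 10 in each comparison, where 5.64% and 4.6% of all probe sets passed in either direction. In 1447863_s_at these differences were 0.66 and 0.85 (adjusted p by limma 0.0012 and 0.00019), and in 1455034_at 1.25 and 1.18 (0.00043 and 0.00064). In 1450750_a_at they were 0.83 and 0.88 (0.00034 and 0.00023). Between LY294002 and Trichostatin A only 1438796_at of Nr4a3 passed, 1 of 10 against 40.0% of all. U0126 and SB202190 differed in 0 of 10, also at an unadjusted p under 0.05 by limma, against 5.22% of all. Trichostatin A was above U0126 in 4 of 10 probe sets, against 42.6% of all, and above SB202190 in 5 of 10, against 38.3%. The fifth was Nr4a1, at 1.5 (adjusted p by limma 0.021), which was lost without Trichostatin A replicate 1, Trichostatin A replicate 2 or SB202190 replicate 3 (0.087 to 0.116). Nr4a1 was 1.18 above U0126 with Trichostatin A (adjusted p by limma 0.061), and passed without LY294002 replicate 3 or Trichostatin A replicate 3 (0.0055 to 0.023). It was 1.24 above SB202190 with LY294002 (0.197), and passed without LY294002 replicate 3 (0.028). In Nr4a2, 1450749_a_at passed between LY294002 and SB202190 without Trichostatin A replicate 3 (adjusted p by limma 0.043), and 1433422_at between Trichostatin A and SB202190 without SB202190 replicate 3 (0.042). With the replicate number as a block, 5 NR4A probe sets passed between LY294002 and U0126 and 5 between LY294002 and SB202190. Among all probe sets, 4828 rather than 1945 and 3312 rather than 1579 passed with the block. Over all probe sets tested, same-numbered arrays of LY294002 and U0126 deviated together (correlations 0.681, 0.452 and 0.299). Those of LY294002 and SB202190 did so more weakly (0.220, 0.244 and 0.258). Between LY294002 and Trichostatin A the correlations were 0.266, 0.251 and -0.111.

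The order of the treatment means could be read only in part. For Nr4a1 the order from low to high was DMSO, SB202190, U0126, LY294002, Trichostatin A. No pair of neighbours in it differed beyond the spread, with adjusted p by limma of 0.890, 0.885, 0.304 and 0.735. For 1447863_s_at of Nr4a2 the order was SB202190, DMSO, U0126, LY294002, Trichostatin A, and only the step from U0126 to LY294002 passed (0.66, adjusted p by limma 0.0012). The last step, from LY294002 to Trichostatin A, was 0.12 (adjusted p 0.405). In 1455034_at the order of those 2 was turned, with LY294002 above Trichostatin A by 0.31 (adjusted p by limma 0.168, and 0.037 without LY294002 replicate 3). For 1421080_at of Nr4a3 no step passed.

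Whether the members differ in their response was tested within arrays, as the difference of their brightest probe sets, by a two-sided exact permutation test over 3 against 3 arrays. The smallest p that this exact test allows is 0.1, so none of the 12 comparisons could pass. With LY294002 the response of Nr4a1 exceeded that of Nr4a2 by 0.79 (exact p = 0.4) and that of Nr4a3 by 1.65 (exact p = 0.1). The response of Nr4a2 exceeded that of Nr4a3 by 0.86 (exact p = 0.1). With Trichostatin A the 3 differences were 0.93, 2.03 and 1.10, with exact p of 0.3, 0.1 and 0.1. With U0126 they were 0.53, 0.86 and 0.33, each at the smallest exact p of 0.1. With SB202190 they were 0.39, 0.44 and 0.052, with exact p of 0.3, 0.4 and 0.7. The adjusted p at the limit was 0.171.

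The genes whose profile over the 15 arrays was most like that of each member were found by the root mean square difference of the log2 values, each gene centred on its own mean, among 16108 genes above the filter. For Nr4a1 they were Dusp1 (0.45), a phosphatase of MAP kinases, Zfp36 (0.47), which destabilizes mRNAs, Btg2 (0.496), an antiproliferative gene, Klf2 (0.497) and Egr2 (0.54), both zinc finger transcription factors. The profile of Nr4a1 itself had a root mean square of 0.93. With LY294002 their log2 differences to DMSO were 1.37, 0.79, 0.55, 1.42 and 1.24, of which those of Btg2 and Egr2 did not pass the test (adjusted p by limma 0.156 and 0.212). The 5 genes were chosen on these same arrays, so that a shared shape follows from the choice. In all 5, replicate 3 lay below the mean of the other two, at -2.12 to -0.54 with LY294002 and -1.78 to -0.44 with Trichostatin A. With DMSO, replicate 3 was the lowest array for Zfp36 (10.09, 10.48 and 9.77) and Egr2 (7.53, 7.53 and 6.98), but not for Dusp1, Btg2 or Klf2. The distance from Nr4a1 to the 3 Nr4a2 probe sets that rose most was 0.64, 0.63 and 0.68. By Pearson correlation 3 of the 5, Dusp1, Zfp36 and Klf2, were again among the 5 closest, with Rgs16 and Ccn1.

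**Figure D3:**
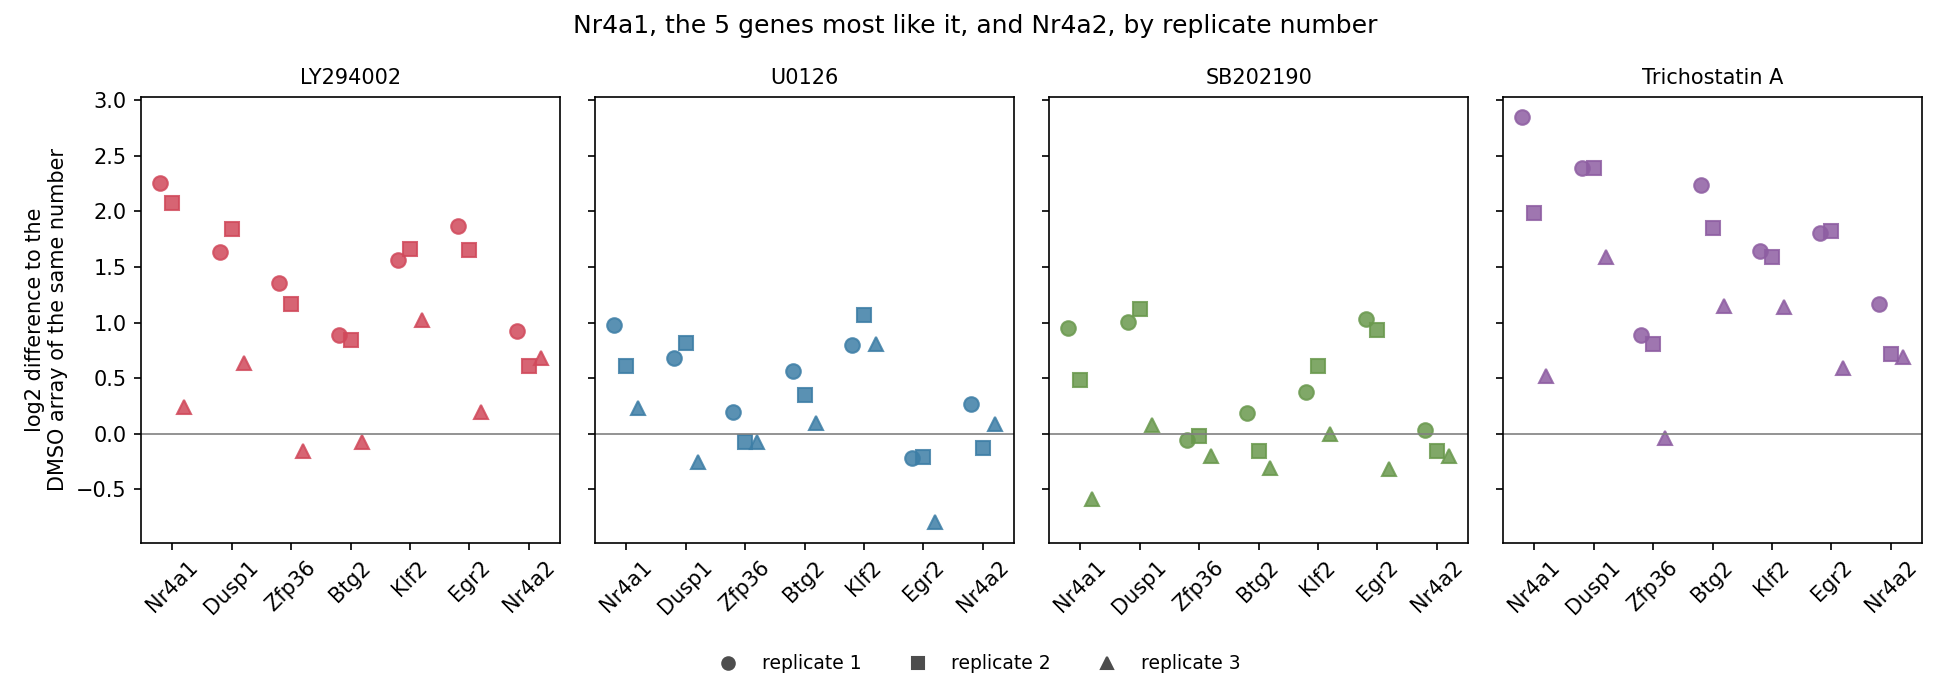
Log2 difference (vertical axis) between each inhibitor array and the DMSO array of the same number, for Nr4a1, the 5 genes most like it and Nr4a2 (1447863_s_at), 1 panel per inhibitor and 1 symbol per replicate number. For Nr4a1 with LY294002 replicates 1 and 2 stand at 2.26 and 2.08 and replicate 3 at 0.24, whereas for Nr4a2 all 3 stand between 0.61 and 0.92.

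For Nr4a2 the 5 closest genes were Bckdha (0.15), an enzyme of branched chain amino acid breakdown, Cdon (0.16), a cell surface receptor, H2ac19 (0.17), a histone, Tslp (0.17), a cytokine, and Robo1 (0.18), a guidance receptor, where Nr4a2 itself had 0.42. Their differences to DMSO lay between 0.65 and 0.86 with LY294002 and between 0.63 and 1.08 with Trichostatin A. By Pearson correlation Tslp, Bckdha and Cdon were again among the 5 closest, with Ccpg1 and C030006K11Rik. For Nr4a3, whose profile was nearly flat at 0.15, the 5 closest were B3gntl1, Lman1l, Tmem89, Cpvl and Tex38, at 0.08 to 0.09. By Pearson correlation 4 of these were again among the closest, with 1700019N19Rik in place of Tex38. All points of a profile share the 15 arrays.

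The 22 genes listed as immediate early genes induced with NR4A, other than the members, were read by replicate number too, and Dusp1, Btg2, Klf2 and Egr2 are among them. Against the DMSO array of the same number their median log2 difference with LY294002 was 0.72, 0.83 and -0.05 in replicates 1, 2 and 3. Replicate 3 gave the lowest of the 3 differences in 22 of 22 genes, against 33.6% of all 15907 genes tested. With Trichostatin A the medians were 1.29, 1.24 and 0.78, and replicate 3 was lowest in 19 of 22 genes, against 27.6% of all. With SB202190 it was lowest in 20 of 22, against 20.1%, and with U0126 in 15 of 22, against 25.9%. All 4 treatments use the same DMSO array of replicate 3. The summed signal of the 14 skeletal muscle markers differed by replicate number too. It was 5078, 3083 and 2623 with LY294002 in replicates 1, 2 and 3, and 7333, 5482 and 4335 with SB202190, so that replicate 3 was lowest, as with DMSO. Its part in the Nr4a1 values was not tested.

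By the test, 6 of these 22 genes were higher and 1 lower with LY294002, with a median difference of 0.51 against 0.01 over all genes tested, of which 8.85% were higher and 2.21% lower. Klf2 rose by 1.42 (adjusted p by limma 9.8e-05), Dusp1 by 1.37 (0.012) and Ccn1, a matricellular protein, by 0.61 (0.032). Fosl1, an AP-1 subunit, fell by 0.99 (7.2e-05). Of all probe sets, 6370 rather than 2978 passed with the replicate number as a block, and 584 without all arrays numbered 3. The count of higher genes in this list was 13 with the block and 11 without all arrays numbered 3. Dropping single arrays gave 11 (LY294002 replicate 3), 3 (DMSO replicate 3) or 1 (DMSO replicate 2, or either of LY294002 replicates 1 and 2).

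With Trichostatin A 17 of the 22 were higher and 2 lower, with a median of 1.06 against -0.04 over all genes tested, of which 27.0% were higher and 22.7% lower. Ier3, a stress response gene, rose by 2.22 (adjusted p by limma 5.6e-07), Atf3, a transcription factor, by 2.21 (1.9e-07), Dusp1 by 2.12 (2.6e-05) and Ptgs2, the inducible cyclooxygenase, by 1.91 (0.0026). Without single arrays the number higher lay between 12 and 19, and the number lower was 1 in 10 of 15 such fits. With U0126 1 was higher and 2 lower, against 1.66% higher and 1.02% lower among all genes. Klf2 rose by 0.89 (adjusted p by limma 0.0049), while Fosl1 fell by 0.81 (0.00038) and Arc fell by 0.80 (0.010), and 4 were lower with the block. With SB202190 0 of 22 passed by limma, against 1.7% higher and 1.01% lower among all genes, although 6 of 22 had an unadjusted p under 0.05. With SB202190 the block gave 3 higher and 1 lower, leaving out all arrays numbered 3 gave 6 higher, and leaving out LY294002 replicate 3 or Trichostatin A replicate 3 gave 1 lower. The block also raised the number of all probe sets passing, from 669 to 1905 with SB202190 and from 667 to 1507 with U0126. Dusp1 and Fos differed by 0.73 each with SB202190 (adjusted p by limma 0.326 and 0.775).

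Genes that respond to cyclic AMP and CREB were read next, 13 of 14 listed. With LY294002 4 were higher and 1 lower, against 8.85% and 2.21% of all genes tested, with a median of 0.25. Pde4b rose by 0.86 (adjusted p by limma 0.0023) and Pde4d by 0.61 (0.010), both phosphodiesterases that break down cyclic AMP, and Nfil3, a transcription factor, by 0.47 (0.031). Gem, a small GTPase, fell by 0.57 (0.012). Without DMSO replicate 2 or LY294002 replicate 1 the number higher was 1, without DMSO replicate 3 or LY294002 replicate 2 it was 2, and without DMSO replicate 3 Gem no longer passed. With the block 6 were higher and 2 lower, without all arrays numbered 3, 1 was higher and none lower, and without all arrays numbered 2 none was higher. Among all probe sets, 6370, 584 and 178 passed in these fits, rather than 2978. With Trichostatin A 8 were higher and 1 lower, against 27.0% and 22.7% of all genes tested, with a median of 0.44, led by Nfil3 at 1.26 (adjusted p by limma 4.5e-07) and Crem, a CREB relative, at 0.90 (3.3e-06), with Ppargc1a, a coactivator of metabolic genes, at 0.72 (6.6e-05) and Pde4d at 0.71 (0.00038). The 1 lower gene was lost without DMSO replicate 1 or 3 or Trichostatin A replicate 1 or 3. With U0126 0 of 13 passed by limma, 2 having an unadjusted p under 0.05, against 1.66% higher and 1.02% lower among all genes. Gem and Nfil3 differed by -0.35 and -0.31 (adjusted p by limma 0.286 and 0.395), and 1 gene was lower with the block. With SB202190 Gem alone was lower, by 0.53 (adjusted p by limma 0.048), 1 of 13 against 1.01% of all genes tested. This call was lost in 10 of 15 fits without 1 array. Upstream stretches with at least 1 TGACG made up 8 of 22 (36.4%) for these genes and 18 of 25 (72.0%) for the immediate early genes. The share was 17.77% of all stretches, and some genes have several starts. Apart from the NR4A members, the other lists ranged from 7.7% for skeletal muscle markers to 33.3% for neuronal markers.

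Of 20 upstream regulators of the NR4A genes that were tested, 8 were higher with LY294002 and none lower, against 8.85% and 2.21% of all genes tested, with a median of 0.27. Ptger4, a prostaglandin receptor that raises cyclic AMP, rose by 0.84 (adjusted p by limma 0.0091), Rps6ka5, a kinase that acts on CREB, by 0.76 (0.00096), Prkacb, a catalytic subunit of PKA, by 0.56 (0.0022) and Srf, a transcription factor, by 0.50 (0.043). The number higher was 3 without DMSO replicate 2 or 3, 2 when LY294002 replicate 1 was dropped, 5 when LY294002 replicate 2 was, and 3 without all arrays numbered 3 and 1 without all numbered 2. With Trichostatin A 6 were higher and 3 lower, with a median of 0.15, shares not far from the 27.0% and 22.7% of all genes tested. Rps6ka5 rose by 1.38 (adjusted p by limma 3.8e-08), Prkaca, another PKA subunit, by 0.87 and Prkacb by 0.68, whereas Pth1r, the receptor of parathyroid hormone, fell by 1.92 (7.3e-07). With U0126 1 of 20 passed, against 1.66% higher and 1.02% lower among all genes. It was Hdac5, a histone deacetylase, higher by 0.37 (adjusted p by limma 0.011). The count was 0 without DMSO replicate 2 or U0126 replicate 1. It was 2 without DMSO replicate 1 or U0126 replicate 2, and 3 without Trichostatin A replicate 3. With SB202190 0 of 20 passed by limma, 5 having an unadjusted p under 0.05, against 1.7% higher and 1.01% lower among all genes. Rps6ka5 and Pth1r differed by 0.42 and -0.35 (adjusted p by limma 0.070 and 0.540), and the block gave 2 higher and 2 lower.

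**Figure D4:**
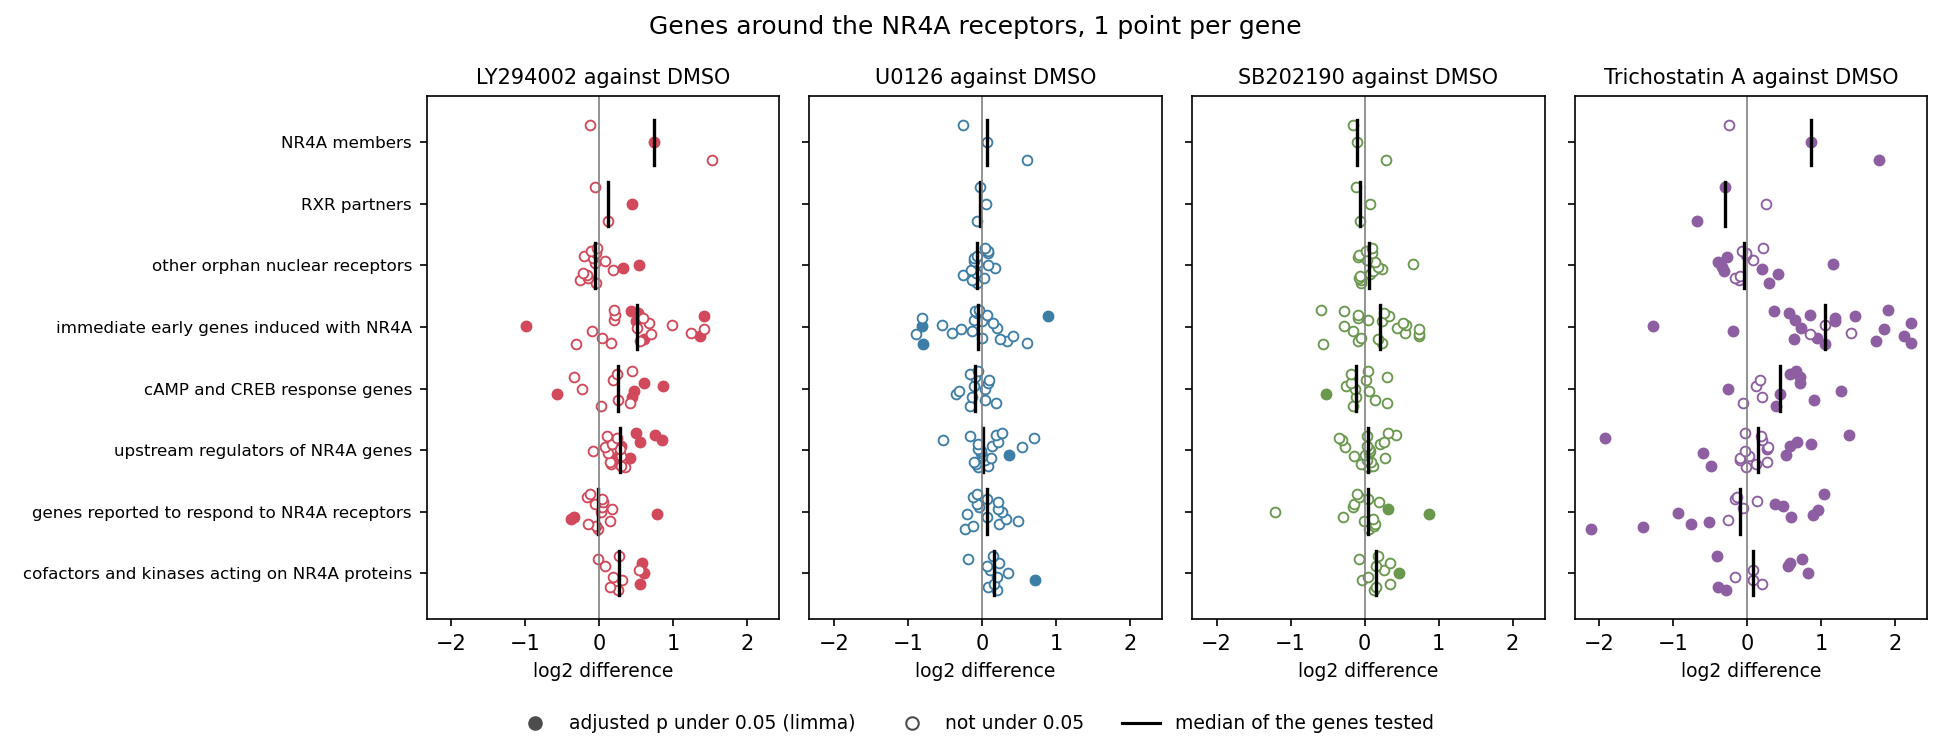
Log2 difference to DMSO (horizontal axis) of the genes of 8 lists around the NR4A receptors (vertical axis), 1 point per gene, filled where the adjusted p by limma was under 0.05, with the median as a bar. The immediate early genes have medians of 0.51 with LY294002 and 1.06 with Trichostatin A, and the genes reported to respond to NR4A receptors have medians of -0.02 and -0.10.

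Of the 3 RXR partners, Rxrb was higher with LY294002 by 0.45 (adjusted p by limma 0.012), a call lost without DMSO replicate 3 or LY294002 replicate 1, and Rxra and Rxrg differed by 0.11 and -0.06 without passing. With Trichostatin A Rxra fell by 0.68 and Rxrg fell by 0.31 (adjusted p by limma 1.2e-05 and 0.0096), and Rxrb differed by 0.25 (0.052), passing without DMSO replicate 1, LY294002 replicate 1, U0126 replicate 1 or 3, or SB202190 replicate 3. None of the 3 passed by limma with U0126 or SB202190, nor at an unadjusted p under 0.05. Of all genes tested, 8.85% were higher with LY294002 and 22.7% lower with Trichostatin A. With U0126 1.66% were higher and 1.02% lower, and with SB202190 1.7% and 1.01%, so that few calls could be looked for among 3 genes. Of 15 other orphan nuclear receptors tested with LY294002, 2 were higher, against 8.85% of all genes tested, where Nr2c2 rose by 0.54 (adjusted p by limma 0.0028) and Nr2c1 by 0.32 (0.014), both lost without all arrays numbered 2, and 1 of which was lost without DMSO replicate 2, DMSO replicate 3 or LY294002 replicate 1. With Trichostatin A 4 of 16 were higher and 4 lower, near the 27.0% and 22.7% of all genes tested, the 4 lower becoming 2 without Trichostatin A replicate 1, and Nr2f1 rose by 1.16 (adjusted p by limma 0.00021) and Nr1d1 by 0.41, while Nr2f2 fell by 0.40 and Nr2c2 fell by 0.34. By limma 0 of 15 passed with U0126, 1 having an unadjusted p under 0.05, against 1.66% higher and 1.02% lower among all genes. With SB202190 0 of 16 passed, 2 having an unadjusted p under 0.05, against 1.7% and 1.01%. There Nr2f1 differed by 0.66 (adjusted p by limma 0.137).

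Among 15 genes reported elsewhere to respond to NR4A receptors, Gadd45a, a DNA damage response gene, rose with LY294002 by 0.78 (adjusted p by limma 0.00092), a call lost without all arrays numbered 2. Eno3 and Fbp2, enzymes of sugar metabolism, fell by 0.38 and 0.34 (0.046 and 0.022), and at least 1 of these 2 calls was lost in 14 of 15 fits without 1 array. The median was -0.02, and of all genes tested 8.85% were higher and 2.21% lower. With Trichostatin A 6 of 16 were higher and 5 lower, with a median of -0.10, where 27.0% and 22.7% of all genes tested were. Vip, a neuropeptide, rose by 1.04 and Pfkm, a glycolytic enzyme, by 0.96, whereas Birc5, an inhibitor of apoptosis, fell by 2.12 and Ccnd1, a cyclin, fell by 1.41. With SB202190 Gadd45a rose by 0.87 (adjusted p by limma 0.00072) and Pfkm by 0.32 (0.042), 2 of 15 against 1.7% of all genes tested. In 10 of 15 fits without 1 array, 1 of these 2 calls was lost. With U0126 0 of 15 passed by limma, 4 having an unadjusted p under 0.05, against 1.66% higher and 1.02% lower among all genes. With U0126 Cdkn1c, an inhibitor of the cell cycle, differed by 0.49 (adjusted p by limma 0.066), and 2 genes passed with the block or without DMSO replicate 1, and 1 without Trichostatin A replicate 2 or 3. Of 11 cofactors and kinases that act on NR4A proteins, 3 were higher with LY294002, against 8.85% of all genes tested. These were Ncoa1 by 0.61, Nrip1 by 0.58 and Bcl2 by 0.55 (adjusted p by limma 0.0026, 0.026 and 0.011). The count was 7 with the block, where 6370 rather than 2978 of all probe sets passed. It was none without all arrays numbered 2, 5 without DMSO replicate 1 or Trichostatin A replicate 3, and 1 without DMSO replicate 2. With Trichostatin A 4 were higher and 3 lower, near the 27.0% and 22.7% of all genes tested, with Ncoa1 higher by 0.82, Rcor1, a corepressor, by 0.74, Nrip1 by 0.58 and Ncoa3 by 0.56. With U0126 Lmcd1 rose by 0.72 (adjusted p by limma 0.0011), 1 of 11 against 1.66% of all genes tested. A second gene passed without LY294002 replicate 1. With SB202190 Ncoa1 rose by 0.46 (adjusted p by limma 0.034), 1 of 11 against 1.7% of all genes tested. The count was 0 without DMSO replicate 2 or 3 or SB202190 replicate 1 or 2, and 2 without DMSO replicate 1.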

How the data were processed

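The deposited table holds log2 signals that the authors computed from Affymetrix arrays, 1 value per probe set and array. The study's methods name the GC-RMA algorithm for this series and robust multichip analysis in another place, and the values do not settle which. No column of the table belonged to no sample. The table has 45101 probe sets, and the 64 that are array controls were dropped. Genes were named from the platform annotation, 34945 probe sets having 1 symbol, 932 several and 9160 none, and 34741 identifiers were found in the RefSeq table. Array medians lay between 6.90 and 7.00. No depth applies, and the precision is limited by 3 arrays per treatment.

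All 15 arrays entered a linear model with a mean for each treatment (limma 3.58.1, R 4.3.3). Probe sets with a mean signal of at least 50 (log2 5.64) in either group were tested, and p-values were adjusted by Benjamini-Hochberg over all of them, with a threshold of 0.05. The p-values measure the spread between these samples. Python 3.11.15 with numpy 2.4.6, pandas 2.3.3, scipy 1.17.1 and matplotlib 3.10.9 did the rest. The fit was tested on simulated data for LY294002 against DMSO with 34651 probe sets, and recovered 68 of 100 probe sets changed 1.4-fold and 99 of 100 changed 2-fold. The simulated arrays had independent noise, the same spread in every treatment and no replicate effect. Nr4a1 had an SD of 0.33 with DMSO and 1.06 with LY294002, so these counts need not hold for it. Each gene of a list was read by its brightest probe set. Every NR4A probe set is named, with the 5 genes most like each member, and of each list up to 4 called genes with the largest difference, or the 2 with the largest where none was called. The members and lists were chosen with earlier results of these data known.

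Replicate numbers come from the labels. Deviations of same-numbered arrays from their treatment means correlated at 0.769, 0.405 and 0.627 between LY294002 and DMSO, 0.718, 0.540 and 0.328 between U0126 and DMSO, and 0.237, 0.302 and 0.325 between SB202190 and DMSO, and so pair those arrays. Between Trichostatin A and DMSO the third was 0.0284, and the numbers were not taken as pairs. Alternatives were the replicate block, other filters, normalizations and priors, fewer arrays in the fit, and the mean over the probe sets of a gene.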

Additional observations from a re-analysis of the deposited data

How the results depend on the processing

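Of 1076 values of NR4A probe sets against DMSO under alternatives, 1011 kept direction and call, 13 passed and 17 failed the threshold in contrast to the values above, and 35 changed sign, all in differences that had not passed the test. Leaving out a whole replicate number was chosen after seeing the data. The cause of these changes was not tested, other than that fits without arrays hold fewer samples. The sign changed for 1433422_at of Nr4a2 with SB202190 (0.0052 with quantile normalization, 0.0067 with median centring), for 1433423_at with Trichostatin A (0.025 and 0.035), and for 1421080_at of Nr4a3 with Trichostatin A (0.10 as the mean of the gene's probe sets). Without 1 array or 1 replicate number, the difference ranged with LY294002 from -0.22 to 0.063 for 1433423_at, -0.17 to 0.050 for 1433422_at and -0.0016 to 0.16 for 1438796_at. With U0126 it ranged from -0.17 to 0.11 for 1433423_at, -0.079 to 0.064 for 1438796_at, -0.019 to 0.26 for 1455034_at and -0.021 to 0.18 for 1447863_s_at. With SB202190 it ranged from -0.14 to 0.10 for 1433422_at, -0.016 to 0.048 for 1450749_a_at, -0.051 to 0.72 for Nr4a1, -0.16 to 0.0057 for 1438796_at and -0.00035 to 0.14 for 1450750_a_at. With Trichostatin A it ranged from -0.083 to 0.072 for 1433423_at.

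With the replicate number as a block, the probe sets passing were 6370 rather than 2978 for LY294002 against DMSO, 1507 rather than 667 for U0126, 1905 rather than 669 for SB202190, 4828 rather than 1945 between LY294002 and U0126, 3312 rather than 1579 between LY294002 and SB202190, and 3163 rather than 1800 between U0126 and SB202190. The NR4A counts with the block were 5 rather than 3 for LY294002 against U0126 and against SB202190, and 2 rather than 1 against Trichostatin A. With only the arrays of both groups, the counts were 696 for LY294002 and 318 for U0126 against DMSO, 368 for SB202190 and 1039 between LY294002 and U0126. Quantile normalization gave 1017 for U0126 and 1280 for SB202190.

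Without 1 array or 1 replicate number, the counts over all probe sets, and over the NR4A probe sets, ranged from 178 to 5210 and 2 to 5 for LY294002 against DMSO, 103 to 780 and 0 to 0 for U0126, 50 to 842 and 0 to 0 for SB202190, and 11173 to 15824 and 5 to 7 for Trichostatin A. Between inhibitors they ranged from 181 to 2459 and 1 to 4 for LY294002 and U0126, 227 to 1889 and 2 to 4 for LY294002 and SB202190, 10417 to 14367 and 1 to 2 for LY294002 and Trichostatin A, 523 to 1997 and 0 to 0 for U0126 and SB202190, 11062 to 15477 and 4 to 5 for Trichostatin A and U0126, and 10018 to 13871 and 4 to 5 for Trichostatin A and SB202190.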
